A study of Mus musculus with 12 samples.

Results

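The 10 genes described here are immediate early genes that act in transcription: Fos, Fosb, Jun, Junb and Jund of the AP-1 family, Egr1, Egr2 and Egr3 of the Egr family, and Ier2 and Klf2. They were taken by symbol from the deposited count table, where 10 of 24421 symbols matched, and all 10 passed the filter on low counts. Egr2 and Egr3, with 12 and 9 counts in wildtype, passed it only through libraries of the altered genotypes. The libraries were made from mouse bone marrow cells that carried GFP and fell in the LSK gate (lin-/ckit+/Sca+), a gate for blood stem cells and early progenitors. The cells came from secondary recipient mice, that is, mice that received marrow passed through an earlier recipient. There were 4 genotypes of engrafted cells with 3 libraries each, 12 in all. Wildtype stands for miR-146a wildtype/Runx1 wildtype cells, titled Empty. Cells without miR-146a, titled Mir-146 KO/Empty, are called miR146aKO. The mutant Runx1S291fsX300, a frameshift of the blood transcription factor Runx1, marks the Runx1mut libraries. Cells with both changes are called miR146aKO_Runx1mut. The labels do not say what Empty stands for, how the mutant Runx1 was introduced, or whether the 3 libraries of each kind were from different mice. The p-values below therefore describe the spread among the libraries at hand. Libraries are named by the identifier that heads their count column, because the deposited sample table gives a genotype but no replicate number.

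Immediate early genes are transcribed within minutes of a stimulus without new protein synthesis, through transcription factors that already sit on their promoters. Fos and Jun proteins pair through leucine zippers into AP-1 dimers, and Jun proteins can also pair with each other, while Egr proteins are zinc finger factors. Their mRNAs are short-lived, and cell handling such as enzymatic or mechanical dissociation and sorting is known to induce them, as are growth factor, cytokine and innate immune signals.

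Promoter windows from 250 bases before to 50 bases after the RefSeq start site were listed for 7 of the 10 genes (Fos, Fosb, Jun, Junb, Jund, Egr2 and Klf2). The 130 bases before the start site are shown for the 6 genes among them whose stretch held a searched motif, because the members' levels were positively correlated over the 12 libraries. They are from the RefSeq build GRCm38.p6, on the gene's own strand, with the motifs in capitals. The Egr2 stretch lies inside the longer GENCODE model of that gene. The last 29 bases of the Klf2 stretch and the last 6 of the Fosb stretch lie within the first exon of the GENCODE model.
Fos (chr12:85473760-85473889, plus strand): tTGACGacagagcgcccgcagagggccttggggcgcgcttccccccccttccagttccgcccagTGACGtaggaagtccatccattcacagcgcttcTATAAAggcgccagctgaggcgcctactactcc
Fosb (chr7:19310046-19310175, minus strand): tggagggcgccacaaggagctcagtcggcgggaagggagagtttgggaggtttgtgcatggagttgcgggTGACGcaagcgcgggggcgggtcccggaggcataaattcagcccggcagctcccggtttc
Jun (chr4:95052223-95052352, minus strand): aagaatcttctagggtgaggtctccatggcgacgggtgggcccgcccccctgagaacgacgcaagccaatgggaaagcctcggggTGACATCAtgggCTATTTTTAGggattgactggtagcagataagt
Junb (chr8:84978749-84978878, minus strand): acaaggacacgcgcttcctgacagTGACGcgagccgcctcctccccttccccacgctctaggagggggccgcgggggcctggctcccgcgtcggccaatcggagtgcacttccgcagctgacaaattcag
Egr2 (chr10:67537739-67537868, plus strand): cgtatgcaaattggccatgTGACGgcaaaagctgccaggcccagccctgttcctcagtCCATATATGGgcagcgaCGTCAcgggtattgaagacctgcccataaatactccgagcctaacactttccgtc
Klf2 (chr8:72318932-72319061, plus strand): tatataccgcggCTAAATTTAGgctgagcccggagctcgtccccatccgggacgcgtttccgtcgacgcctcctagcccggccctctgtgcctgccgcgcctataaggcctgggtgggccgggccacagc
The capitals mark 5 motifs, searched on both strands and chosen with these sequences in view. No marked motif shares bases with another, and CGTCA in Egr2 is the first motif read on the other strand. The core of a cAMP response element, TGACG, was found in 5 of the 7 genes with a window (Fos, Fosb, Junb, Egr2 and Klf2) and in 20.8% of the 32851 windows of that length. The CArG box, to which serum response factor binds, was found in Egr2 alone of the 7 and in 1.63% of all windows. Sites more than 250 bases before the start site, and any in Egr1, Egr3 or Ier2, were outside this search. Jun alone held the variant AP-1 element TGACATCA, against 3.62% of all windows. The MEF2 element was in 2 of the 7 (Jun and Klf2), against 0.557%. The letters TATAAA were in Fos and Junb, against 13.6%. In Fos, a cAMP response element core began 66 bases and TATAAA, the usual TATA box, 33 bases before the start site. In Junb the letters TATAAA lie at the RefSeq start site itself, outside the stretch shown. The GENCODE model of Junb starts further downstream, at 84978718, so the letters lie before that start. A match is a description of these letters and not a measured binding site.

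Total counts ran from 3540043 to 7026393 per library, of which 3.91% to 17.8% fell on the ribosomal RNA gene Rn45s. Kit and Ly6a (Sca-1), which define the gate, were detected in all 12 libraries, Kit at 24.6 to 711.1 CPM (counts scaled to library size with TMM factors) and Ly6a at 12.1 to 1019.4 CPM. Kit stayed at or below 59.7 CPM in the 3 miR146aKO libraries. The hairpin gene Mir146 had 14 counts in the miR146aKO_Runx1mut library A031, against its label, and 0 counts in the other 11, wildtype included. The log2 fold changes of that genotype against wildtype are therefore also given without A031. Runx1 was at 236.8 to 359.5 CPM in wildtype and 199.5 to 608.9 CPM in Runx1mut, and a frameshift need not alter the mRNA level. The Runx1mut library A042 was nearest to the wildtype library A015 (Spearman correlation of counts 0.937).

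In the LSK cells the fitted differences from wildtype were widest for Egr3, Egr2 and Klf2. Egr3 and Egr2 were near 0 in wildtype and passed the filter only through the altered genotypes, so their direction was in part set beforehand. Except for Ier2 in miR146aKO, every gene had a higher mean in each of the 3 altered genotypes than in wildtype. Ier2 in miR146aKO (56.0 against 56.4 CPM in wildtype) and Egr1 in miR146aKO_Runx1mut (242.9 against 233.3 CPM) had means close to wildtype. Fos averaged 87.0 ± 62.9 CPM (SD, n = 3) in wildtype against 342.8 ± 82.7 in miR146aKO, 382.2 ± 255.8 in Runx1mut and 359.2 ± 234.9 in miR146aKO_Runx1mut. Klf2 averaged 6.87 ± 8.36 CPM in wildtype and 128.2 ± 85.9 CPM in miR146aKO (SD, n = 3). None of the 10 genes passed edgeR's quasi-likelihood test at a Benjamini-Hochberg adjusted p under 0.05 in any of the 10 comparisons made. Libraries of one genotype differed widely, for Egr1 by 22-fold within Runx1mut, so the value in each library stands before each test. In sorted bulk RNA, fewer expressing cells and less RNA per cell cannot be told apart.

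**Figure D1:**
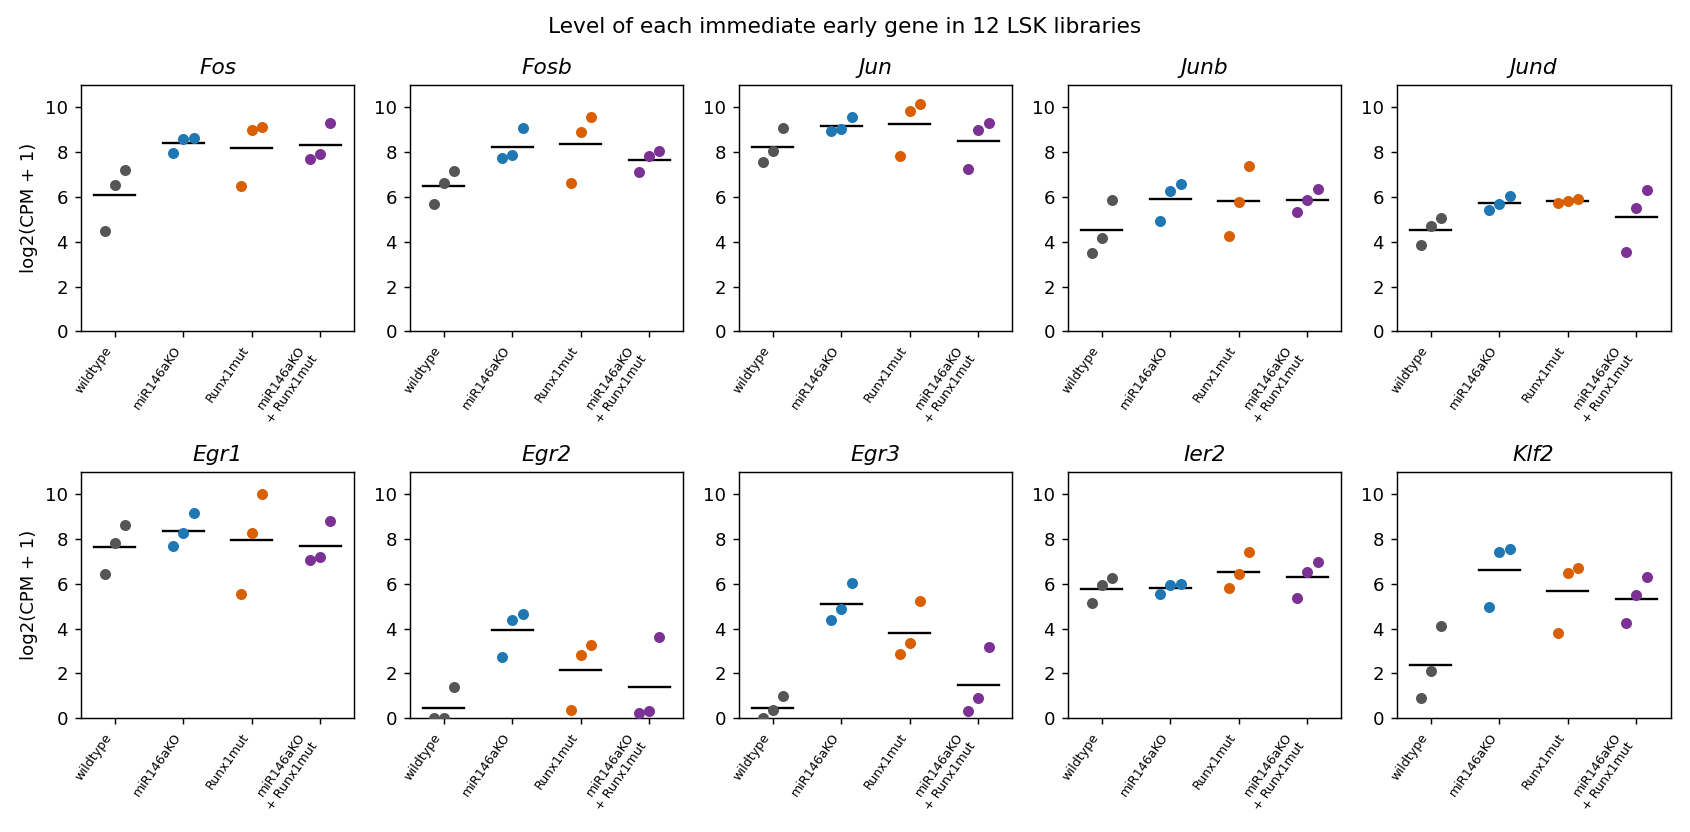
Level of each of the 10 genes in the 12 LSK libraries as log2(CPM + 1), grouped by genotype. Points are libraries and bars are means of 3 libraries. Wildtype points for Egr3 lie at or below 0.958 CPM, and the 3 Runx1mut points for Egr1 span 46.1 to 1014.8 CPM.

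Fos (ENSMUSG00000021250.13, chromosome 12, 85473890 to 85477273, plus strand, GRCm38) encodes the AP-1 subunit that must pair with a Jun protein. It was at 146.8, 92.8 and 21.4 CPM in the wildtype libraries A015, A040 and A053, and at 395.4, 247.5 and 385.6 CPM in the miR146aKO libraries A047, A150 and A151. The Runx1mut libraries A021, A042 and A058 had 88.1, 505.1 and 553.5 CPM, and the miR146aKO_Runx1mut libraries A001, A031 and A051 had 208.3, 629.8 and 239.6 CPM. All miR146aKO and all miR146aKO_Runx1mut libraries lay above all wildtype libraries, while A021 lay within the wildtype range. The log2 fold change against wildtype was 1.98 (SE 0.72, edgeR adjusted p = 0.201) in miR146aKO, which is 3.94-fold. It was 2.14 (SE 0.72, edgeR adjusted p = 0.755) in Runx1mut and 2.05 (SE 0.72, edgeR adjusted p = 0.475) in miR146aKO_Runx1mut. Without A031 the last value for Fos was 1.36. When symbols of low count were kept in the test, edgeR gave Fos an adjusted p of 0.00812, 0.0127 and 0.0133 in these 3 comparisons.

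Fosb (ENSMUSG00000003545.3, chromosome 7, 19302696 to 19310051, minus strand) encodes a second Fos protein, with a stable splice form known from neurons. Wildtype libraries held 140.4, 51.1 and 96.8 CPM, and miR146aKO libraries 542.1, 236.9 and 210.3 CPM, in the library order given for Fos. These groups did not overlap. In Runx1mut it was at 98.9, 766.0 and 476.7 CPM, again with A021 among the wildtype values. The miR146aKO_Runx1mut libraries held 137.5, 263.3 and 229.4 CPM, with A001 just below the highest wildtype library. Fosb differed from wildtype by a log2 fold change of 1.78 (SE 0.63, edgeR adjusted p = 0.193) in miR146aKO, 2.22 (SE 0.64, edgeR adjusted p = 0.608) in Runx1mut and 1.13 (SE 0.62, edgeR adjusted p = 0.596, 0.93 without A031) in miR146aKO_Runx1mut. With low counts kept, edgeR called Fosb in miR146aKO (adjusted p = 0.0182) and in Runx1mut (adjusted p = 0.00635). Leaving out A047, the highest miR146aKO library, took the first fold change to 1.22.

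Jun (ENSMUSG00000052684.4, chromosome 4, 95049034 to 95052222, minus strand) is the common partner of Fos. Its levels were 532.6, 262.7 and 190.2 CPM in wildtype, 750.1, 487.3 and 523.6 CPM in miR146aKO, 226.6, 915.5 and 1128.0 CPM in Runx1mut and 150.1, 635.9 and 506.5 CPM in miR146aKO_Runx1mut. Each altered genotype overlapped wildtype, and the lowest of the 12 was A001. The log2 fold changes of Jun against wildtype were 0.84 (SE 0.60, edgeR adjusted p = 0.541), 1.2 (SE 0.60, edgeR adjusted p = 0.932) and 0.39 (SE 0.60, edgeR adjusted p = 0.865), in that order. Without A031 the miR146aKO_Runx1mut value for Jun was 0.00. An antisense gene, Junos, shares 232 exon bases with Jun, and the amplification kit does not keep strand, so reads there cannot be assigned.

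Junb (ENSMUSG00000052837.6, chromosome 8, 84974484 to 84978718, minus strand) encodes a weaker activator than Jun that restrains myeloid growth. It was at 56.6, 10.4 and 17.1 CPM in wildtype, 94.5, 76.7 and 29.5 CPM in miR146aKO, 18.0, 164.2 and 53.9 CPM in Runx1mut and 39.6, 80.7 and 57.0 CPM in miR146aKO_Runx1mut. The wildtype library A015 overlapped every altered genotype. Its log2 fold changes were 1.25 (SE 0.78), 1.48 (SE 0.79) and 1.07 (SE 0.78), with edgeR adjusted p-values of 0.471, 0.945 and 0.685. Leaving out A042 took the Runx1mut value of Junb from 1.48 to 0.35, and leaving out A031 took the miR146aKO_Runx1mut value to 0.78. Junb shares 173 exon bases with Prdx2 on the other strand.

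Jund (ENSMUSG00000071076.6, chromosome 8, 70698949 to 70700616, plus strand) is the Jun gene with the most constant transcription in most cells. Wildtype libraries had 32.0, 24.9 and 13.5 CPM and miR146aKO libraries 41.1, 65.1 and 50.6 CPM. Runx1mut was the tightest group of any member, at 52.6, 59.6 and 56.3 CPM, and both single genotypes lay wholly above wildtype. The miR146aKO_Runx1mut libraries were spread over 10.5, 77.5 and 43.9 CPM, from below the lowest wildtype library to the highest value of the 12. Jund had log2 fold changes of 1.15 (SE 0.62, edgeR adjusted p = 0.391), 1.26 (SE 0.62, edgeR adjusted p = 0.928) and 0.90 (SE 0.62, edgeR adjusted p = 0.666), the last 0.21 without A031. An antisense model, Gm11175, covers 877 of the 1668 exon bases of Jund, so the level is uncertain.

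Egr1 (ENSMUSG00000038418.7, chromosome 18, 34859823 to 34864984, plus strand) encodes a factor that keeps blood stem cells quiescent and favours macrophage fate. Its levels were 386.8, 227.2 and 86.0 CPM in wildtype and 570.5, 202.0 and 304.3 CPM in miR146aKO. In Runx1mut they were 46.1, 1014.8 and 305.9 CPM, so the lowest and the highest of the 12 libraries, A021 and A042, carried the same label. The miR146aKO_Runx1mut libraries held 132.8, 450.4 and 145.5 CPM. All 4 genotypes overlapped. Egr1 had log2 fold changes of 0.62 (SE 0.84, edgeR adjusted p = 0.777), 0.97 (SE 0.84, edgeR adjusted p = 1) and 0.06 (SE 0.84, edgeR adjusted p = 0.99) against wildtype. Without A047 the miR146aKO value of Egr1 was 0.12, without A042 the Runx1mut value was -0.41, and without A031 the miR146aKO_Runx1mut value was -0.75.

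Egr2 (ENSMUSG00000037868.15, chromosome 10, 67535475 to 67542188, plus strand), a factor of lymphocyte tolerance and myelination, was close to the counting floor in wildtype. It had 1.64 CPM in A015 and 0 in A040 and A053, 12 counts in all. A count of 0 allows up to 3 counts, which is 0.666 CPM in A040 and 0.427 CPM in A053. The miR146aKO libraries held 24.0, 20.1 and 5.60 CPM, all above wildtype, while Runx1mut held 0.284, 5.98 and 8.55 CPM. In miR146aKO_Runx1mut, A031 had 11.4 CPM and A001 and A051 had 0.172 and 0.242 CPM, both at or under the floor of 3 counts. The log2 fold change of Egr2 in miR146aKO was 4.82 (SE 2.04, edgeR adjusted p = 0.271). All 12 wildtype counts came from A015. Without A015 the log2 fold change was 9.46, a value fitted against wildtype libraries at 0 counts and no bound. In miR146aKO_Runx1mut it was 2.76 (SE 1.87, edgeR adjusted p = 0.662), and -1.36 without A031.

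Egr3 (ENSMUSG00000033730.4, chromosome 14, 70077203 to 70082614, plus strand), which antigen receptor signals induce in lymphocytes, gave the widest separation among the 10 genes. Wildtype libraries held 0.958, 0 and 0.285 CPM, 9 counts in all. The miR146aKO libraries held 19.9, 64.6 and 28.5 CPM (447 counts), and the Runx1mut libraries 9.22, 36.6 and 6.33 CPM (359 counts). In miR146aKO_Runx1mut it was at 0.861, 8.0 and 0.242 CPM, 51 counts in all. Both single genotypes thus lay wholly above wildtype, and miR146aKO_Runx1mut overlapped wildtype through A001 and A051. The log2 fold change of Egr3 in miR146aKO was 6.36 (SE 1.51, unadjusted p = 0.000872, edgeR adjusted p = 0.0799), the smallest adjusted p of any member. DESeq2 called it in miR146aKO (log2 fold change 6.47, adjusted p = 4.06e-05) and in Runx1mut (5.29, adjusted p = 0.00677), where edgeR gave 5.25 (SE 1.44, adjusted p = 0.608). With low counts kept, edgeR also called Egr3 in both (adjusted p = 0.00118 and 0.0252). In miR146aKO_Runx1mut the value was 2.75 (SE 1.32, edgeR adjusted p = 0.544), and 0.36 without A031.

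Ier2 (ENSMUSG00000053560.4, chromosome 8, 84661331 to 84662852, minus strand), a nuclear protein induced with Fos and Jun, varied least within a genotype (SD of log2 CPM 0.67, against a median of 0.97 over all tested genes). It was at 59.8, 75.5 and 33.9 CPM in wildtype, 62.9, 60.0 and 45.0 CPM in miR146aKO, 54.2, 168.2 and 84.9 CPM in Runx1mut and 92.3, 125.8 and 40.5 CPM in miR146aKO_Runx1mut. Every altered genotype overlapped wildtype. The log2 fold changes of Ier2 were -0.01 (SE 0.53, edgeR adjusted p = 0.995), 0.86 (SE 0.53, edgeR adjusted p = 0.976) and 0.61 (SE 0.53, edgeR adjusted p = 0.742). Without A042 the Runx1mut value of Ier2 was 0.30, and without A031 the miR146aKO_Runx1mut value was 0.24. The sign in miR146aKO turned under another scaling (0.04 with DESeq2 size factors).

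Klf2 (ENSMUSG00000055148.7, chromosome 8, 72319033 to 72321656, plus strand) encodes a Krüppel-like factor of quiescent lymphocytes, endothelium and monocytes. Wildtype libraries held 16.4, 3.33 and 0.854 CPM, and the miR146aKO libraries A047, A150 and A151 held 29.7, 187.0 and 168.0 CPM. Runx1mut held 13.1, 101.9 and 87.1 CPM and miR146aKO_Runx1mut 17.7, 77.5 and 43.9 CPM. Both miR-146a-deficient genotypes lay wholly above wildtype, by a narrow gap at A001, and A021 lay within the wildtype range. The log2 fold change of Klf2 was 4.21 (SE 1.10, edgeR adjusted p = 0.104) in miR146aKO, 3.28 (SE 1.05, edgeR adjusted p = 0.7) in Runx1mut and 2.74 (SE 1.03, edgeR adjusted p = 0.475, 2.15 without A031) in miR146aKO_Runx1mut. DESeq2 called Klf2 in miR146aKO (adjusted p = 0.000587), and edgeR with low counts kept called it in all 3 comparisons (adjusted p = 3.28e-05, 0.00509 and 0.0196). Leaving out A015 took the miR146aKO value of Klf2 to 5.96.

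Marker genes of other cell types differed between the same libraries. The summed level of 8 B lineage markers was 18.2 to 59.9 CPM in wildtype, where Pax5 was at 0 in all 3 libraries, and 465 to 2567 CPM in miR146aKO, where all 8 averaged above wildtype. The 11 monocyte and macrophage markers summed to 98.1 to 1026.1 CPM in wildtype, 1073.7 to 6382.4 CPM in miR146aKO and 1514.5 to 5145 CPM in miR146aKO_Runx1mut, with all 11 averaging above wildtype in both. The 9 markers of stroma and endothelium, a cell type known for Klf2, summed to 74.6 to 93.0 CPM in wildtype. Col1a1 and Cdh5 were at 0 in all 3 wildtype libraries. In miR146aKO the 9 summed to 61.3 (A047) to 891.6 CPM, and 7 of 9 averaged above wildtype. In miR146aKO_Runx1mut the 9 summed to 126.3 to 756.5 CPM, wholly above wildtype, but only 6 of 9 averaged above it. Of that genotype, A001 had Col1a1, Col1a2, Kdr, Lepr and Emcn at 0, with Pecam1 at 93.7 CPM. A051 had Cxcl12, Col1a1, Col1a2 and Lepr at 0, with Lpl at 199.1 CPM. The 7 dendritic cell markers summed to 55.7 to 103.5 CPM in wildtype and 216.1 to 314.3 CPM in miR146aKO. The 9 T and NK cell markers summed to 154.3 to 461.4 CPM in wildtype and 204.2 to 2180.6 CPM in miR146aKO. The upper end was in A047, the highest of the 12 libraries, with Cd3e at 643.5 CPM and Il2rb at 403.6 CPM. The 11 neutrophil markers summed to 2218.8 to 27390.1 CPM in wildtype and 3809.1 to 11554.9 CPM in miR146aKO. In Runx1mut they summed to 2538.2 to 54132.2 CPM and in miR146aKO_Runx1mut to 12502.5 to 55761.2 CPM, so each genotype overlapped wildtype. Of the 11, 8 averaged above wildtype in miR146aKO and 11 in both Runx1mut and miR146aKO_Runx1mut. Mpo made up much of these sums, with 28235 CPM in A021 and 48563.8 CPM in A001. The 12 stem cell markers summed to 1091.6 to 3211.5 CPM in wildtype and 175.9 to 446.9 CPM in miR146aKO. In the Runx1mut library A042 the B lineage markers (13.4 CPM) and the monocyte and macrophage markers (49.9 CPM) had their lowest sums of the 12 libraries. The 7 mast cell and basophil markers (2062.4 CPM) and 6 genes of the LSK gate (1925.8 CPM) had their highest sums in A042. The part of these markers in the levels of the 10 genes was not tested. The 4 Y-linked genes also differed, at 0.547 to 32.0 CPM summed in wildtype, 99.3 to 241.5 CPM in miR146aKO, 26.2 to 169.6 CPM in Runx1mut and 13.8 to 214.1 CPM in miR146aKO_Runx1mut. With their mean as a covariate, the log2 fold change in miR146aKO was 4.73 for Egr3 (edgeR adjusted p = 0.5) and 4.61 for Klf2 (edgeR adjusted p = 0.4). The Y-linked sums of wildtype and miR146aKO do not overlap, so this covariate and that genotype cannot be told apart. Under the same covariate Jund went from 1.15 to 0.11 and Egr1 from 0.62 to -0.42 in miR146aKO. In Runx1mut, Jund went from 1.26 to 0.47 and Egr1 from 0.97 to 0.11.

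**Figure D2:**
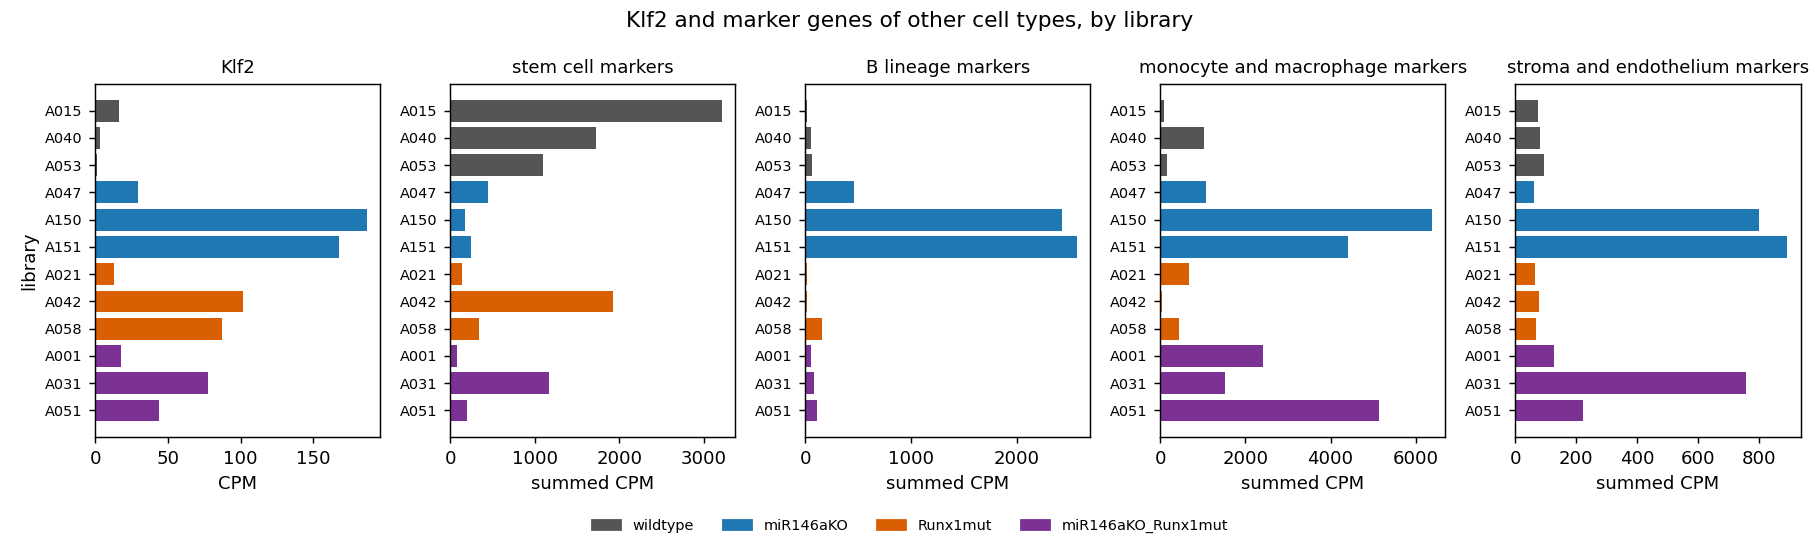
Klf2 (CPM, left) and the summed CPM of 4 marker lists in each of the 12 libraries, with bars coloured by genotype. Klf2 is highest in A150 and A151 (187.0 and 168.0 CPM) and lowest in A053 (0.854 CPM). The B lineage sum is highest in A151 (2567 CPM) and lowest in A042 (13.4 CPM). The relation of the markers to Klf2 was not tested.

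For miR146aKO against wildtype, 0 of the 10 genes were called, where 0.180% of the 12744 tested genes were. At an unadjusted p under 0.05, 5 of 10 were higher (Fos, Fosb, Egr2, Egr3 and Klf2) against 8.81% of all tested genes in that direction. All miR146aKO libraries lay above all wildtype libraries for 6 of 10, those 5 and Jund, against 10.7% of all tested genes. Egr2 and Egr3 are in both counts, though they passed the filter only through altered genotypes, so their direction was in part set beforehand. The members' median log2 fold change was 1.51, where that of all tested genes was 0.00, and 9 of 10 were above 0 against 49.9%. DESeq2 called 2 of the 10 (Egr3 and Klf2), edgeR with low counts kept called 4 (Fos, Fosb, Egr3 and Klf2) and limma-voom called 0. These tools called 6.99%, 4.14% and 0.596% of all genes they tested.

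For Runx1mut against wildtype, 0 of 10 were called and 0% of all tested genes. At an unadjusted p under 0.05, 4 of 10 were higher (Fos, Fosb, Egr3 and Klf2), against 2.64%. Only Jund and Egr3 had no overlap with wildtype, 2 of 10 against 5.72% of all tested genes, since A021 lay at or below the highest wildtype library for the other 8 genes. Egr3 is in both counts, with the same limit from the filter as in miR146aKO. The median of the members was 1.81 and that of all tested genes 0.01, with 10 of 10 above 0 against 50.3%. DESeq2 called 1 (Egr3) and edgeR with low counts kept called 4 (Fos, Fosb, Egr3 and Klf2), where they called 0.966% and 0.843% of all genes they tested.

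For miR146aKO_Runx1mut against wildtype, 0 of 10 and 0% of all tested genes were called. Fos and Klf2 had an unadjusted p under 0.05, 2 of 10 against 4.99% of all tested genes in that direction. The same genes had no overlap with wildtype, against 6.32%. The members' median was 1.10, against 0.03 over all tested genes, and 10 of 10 were above 0, against 51.3%. Without A031 the values of Egr1 and Egr2 were below 0, that of Jun was 0.00, and 0 were called. With library totals that of Egr1 was -0.05. With low counts kept, edgeR called 2 (Fos and Klf2), and 1.33% of all genes. These 3 comparisons share the wildtype libraries, of which A053 was among the 3 lowest of the 12 for all 10 genes, so their values are given side by side and not related to each other.

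**Figure D3:**
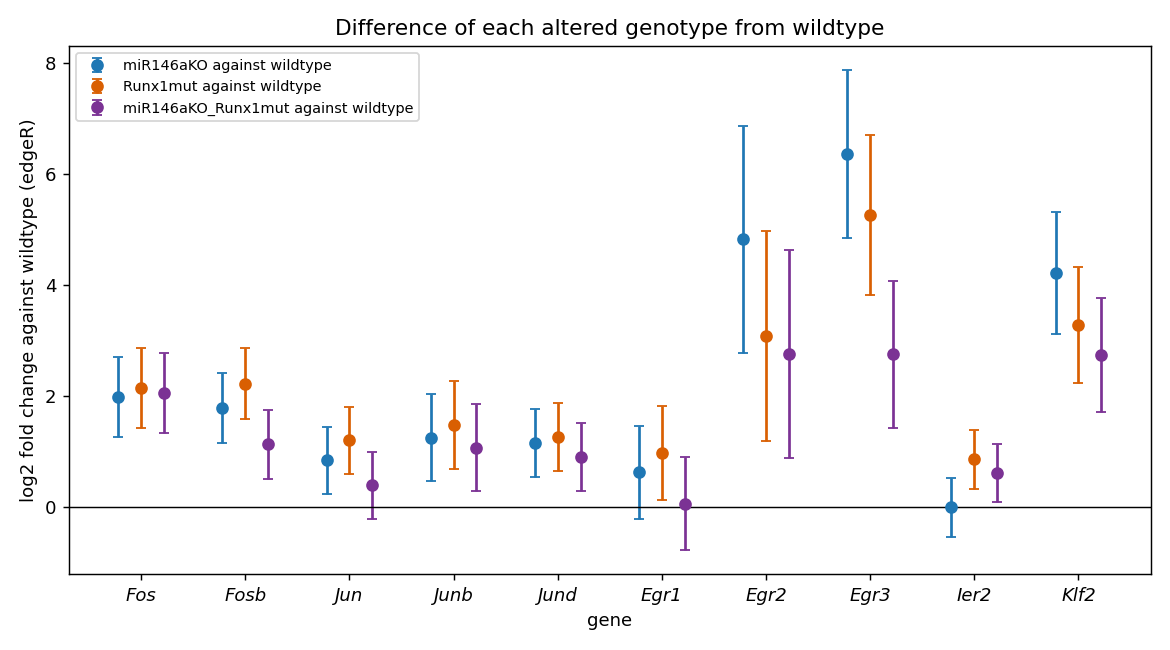
Log2 fold change of each gene against wildtype in the 3 altered genotypes, from edgeR, with bars of 1 standard error. In miR146aKO, Egr3 (6.36), Egr2 (4.82) and Klf2 (4.21) have the highest values and Ier2 (-0.01) the lowest.

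The design also asks what the changes do together. The interaction is the Runx1mut effect in cells without miR-146a minus that in cells with it, and it was above 0 for 0 of 10 genes, where it was for 50.9% of all tested genes. Its median was -1.87 over the members and 0.03 over all tested genes. Each member thus had a lower value in miR146aKO_Runx1mut than the sum of both single log2 fold changes. The value was -8.86 (SE 1.95, edgeR adjusted p = 0.262) for Egr3, -4.75 (SE 1.43, edgeR adjusted p = 0.341) for Klf2 and -2.87 (SE 0.89, edgeR adjusted p = 0.341) for Fosb. These 3 had an unadjusted p under 0.05, against 5.04% of all tested genes in that direction, and 0 were called, against 0.0235%. DESeq2 called Egr3 (-8.98, adjusted p = 0.000143) and Klf2 (-4.78, adjusted p = 0.0326), and edgeR with low counts kept called these and Fosb, where they called 1.39% and 1.40% of all genes they tested. Without A031 the interaction was -11.24 for Egr3, -5.34 for Klf2 and -3.06 for Fosb. For Fos it was -2.07 (SE 0.99, edgeR adjusted p = 0.54) and for Ier2 -0.24 (SE 0.74, edgeR adjusted p = 0.96). The wildtype libraries enter the interaction as well as both single fold changes.

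Set directly against the single genotypes, miR146aKO_Runx1mut differed most in Egr3. Against miR146aKO the log2 difference of Egr3 was -3.61 (SE 1.31, edgeR adjusted p = 0.223), with all 3 libraries below, and -5.99 without A031. It was the 1 of 10 that lay wholly below, where 9.81% of all tested genes did, and the 1 of 10 with an unadjusted p under 0.05, where 7.17% of all tested genes had one in that direction and 0.0157% were called. DESeq2 called it (-3.69, adjusted p = 0.0362), and 5.12% of all genes. Klf2 was at -1.47 (SE 0.98, edgeR adjusted p = 0.51) in that comparison and Fos at 0.07 (SE 0.69, edgeR adjusted p = 0.976). Against Runx1mut 0 of 10 values were above 0, against 50.4% of all tested genes, and they lay between -2.50 (Egr3) and -0.09 (Fos), with an edgeR adjusted p of 0.999 for each and 0% of all tested genes called. With limma-voom 2 of the 10 were above 0, Fos at 0.16 and Junb at 0.06. Without A031 they lay between -4.88 (Egr3) and -0.62 (Ier2). Runx1mut and miR146aKO overlapped in every member, with log2 differences from -1.74 (Egr2) to 0.87 (Ier2) and 0.141% of all tested genes called.

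With both backgrounds pooled, Fos had the one unadjusted p under 0.05 for the Runx1 mutation (log2 fold change 1.10, SE 0.50, edgeR adjusted p = 0.38, 0.76 without A031), where 6.28% of all tested genes had one in that direction and 0.0942% were called. For miR-146a loss, Egr3 (1.93, SE 0.89, edgeR adjusted p = 0.417) and Klf2 (1.84, SE 0.70, edgeR adjusted p = 0.3) had one, where 7.09% did in that direction and 0.400% were called. Without A031 these values were 0.74 and 1.54. In the test for any difference among the 4 genotypes, 4 of 10 members (Fos, Fosb, Egr3 and Klf2) had an unadjusted p under 0.05, against 14.7%, and the smallest edgeR adjusted p was 0.126 (Egr3), where 0.408% of all tested genes were called.

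The levels of the 10 genes were positively correlated over the 12 libraries, but not in step within every genotype. In miR146aKO, A047 was the highest library for Fos, Fosb, Jun, Junb, Egr1, Egr2 and Ier2 and the lowest for Jund, Egr3 and Klf2. A042 was the highest library for 4 of them (Fosb, Junb, Egr1 and Ier2) and among the 3 highest for 9, while A021 of the same label was among the 3 lowest for 6. The 11 neutrophil markers summed to 54132.2 CPM in A021 and 2538.2 CPM in A042, and the 12 stem cell markers to 133.4 and 1929.9 CPM. Their part in the contrast between these libraries was not tested. A053 was among the 3 lowest for all 10 and A040 for 7. The summed level of the 10 genes ran from 460 CPM in A053 to 3737.7 CPM in A042, and was 607.2 CPM in A021 and 2761 CPM in A058. In miR146aKO_Runx1mut it was 789.9 CPM in A001, 2360.2 CPM in A031 and 1306.7 CPM in A051. All 45 pairs of members had a Pearson correlation of log2 CPM above 0 over the 12 libraries (0.28 to 0.89, median 0.70), which share genotype, sort and scaling. Fosb and Junb formed the highest pair (0.89) and Jund and Ier2 the lowest (0.28). Genotype accounted for 80.7% of the variance of log2 CPM of Egr3, 64.5% of Klf2, 52.0% of Fos and 6.04% of Egr1, where the median over all tested genes was 33.2%.

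**Figure D4:**
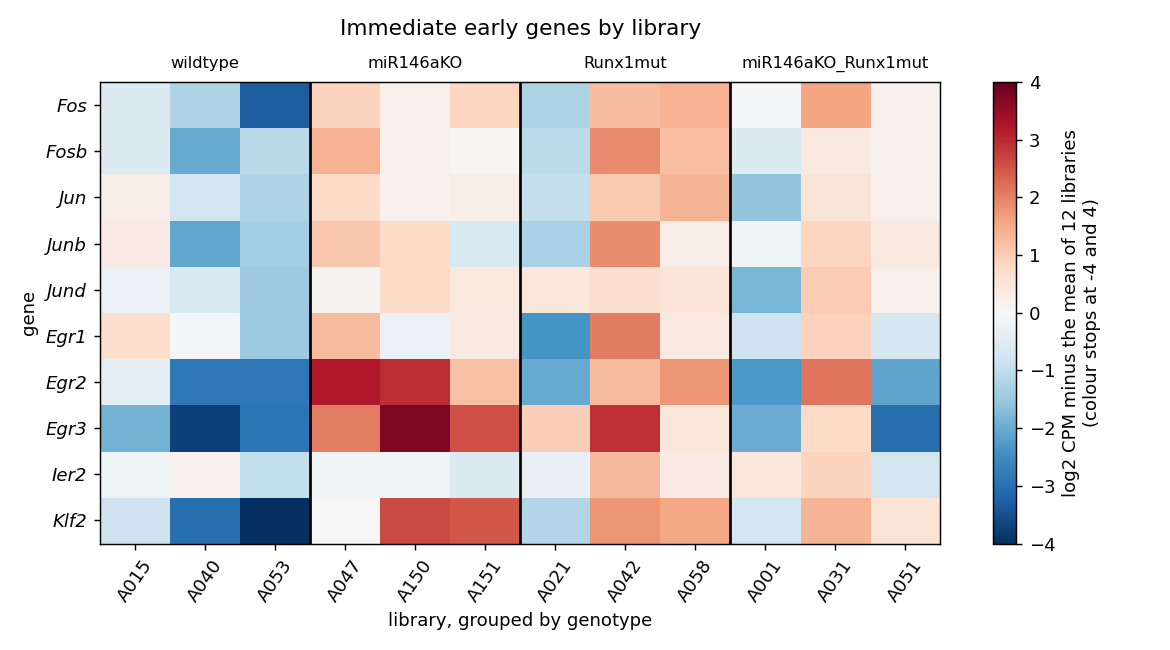
Log2 CPM of each gene (rows) in each library (columns, grouped by genotype), minus the mean of that gene over the 12 libraries. A053 is below the mean in all rows, and A042 (sum 3737.7 CPM) and A021 (sum 607.2 CPM) contrast within Runx1mut.

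Per kilobase of exon and over all 12 libraries, Jun had the highest level of the 10 (164.9 ± 94.1 CPM per kilobase, SD, n = 12), followed by Fos (124.5 ± 84.5), Egr1 (72.0 ± 59.6) and Ier2 (49.4 ± 25.4). Fosb stood at 43.4 ± 34.5, Klf2 at 33.7 ± 34.4, Jund at 26.4 ± 12.3 and Junb at 25.3 ± 18.6 CPM per kilobase. Egr3 (3.32 ± 4.51) and Egr2 (1.91 ± 2.42) lay below the median of tested genes with a length, 6.39 CPM per kilobase. By genotype, Egr3 averaged 0.094 in wildtype and 8.55 in miR146aKO, and in wildtype Fos (37.0) stood below Egr1 (52.0) and next to Ier2 (37.1 CPM per kilobase). Jun exceeded Fos in 10 of 12 libraries and Fos exceeded Egr1 in 8, while Klf2 exceeded Jund in 5, so neighbours in this order were within their spread. Junb exceeded Egr3 in all 12, the one step that held in each library.

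The genes whose log2 CPM followed that of Fos most closely over the 12 libraries, among 9580 of sufficient level, were Btg2 (Pearson 0.93), an antiproliferative early gene, Flcn (0.90), Lilrb4a (0.88), Lilr4b (0.87) and Itm2c (0.86). Lilrb4a and Lilr4b are near-identical copies, so their counts are uncertain. Btg2 averaged 15.4 ± 12.1 CPM in wildtype, 152.8 ± 82.7 in miR146aKO, 75.7 ± 49.4 in Runx1mut and 62.2 ± 28.7 in miR146aKO_Runx1mut (SD, n = 3). For Egr1 they were Brox (0.90), Kidins220 (0.88), Zfp36 (0.85), which destabilises AU-rich mRNAs, Ubb (0.85) and Acot11 (0.82). These are descriptions over libraries that share genotypes and scaling.

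Other genes of the early response were read from lists. Of 44 other immediate early genes, 39 were tested and 0 were called in any comparison, where at most 0.408% of all tested genes were. In miR146aKO against wildtype, 17 were higher and 1 lower at an unadjusted p under 0.05, against 8.81% and 7.09% of all tested genes, and the median log2 fold change was 1.49, where all tested genes had 0.00. In Runx1mut 7 were higher and 1 lower (median 0.92), against 2.64% and 2.88% of all tested genes. In miR146aKO_Runx1mut 9 were higher and 1 lower (median 1.2), against 4.99% and 4.43%. For the interaction 2 were higher and 8 lower (median -1.46), against 4.43% and 5.04%. Btg1, an antiproliferative gene, averaged 64.8 ± 44.2 CPM in wildtype and 382.4 ± 60.7 CPM in miR146aKO (SD, n = 3; log2 fold change 2.56, edgeR adjusted p = 0.0706). Id3, an inhibitor of E proteins, averaged 0.211 ± 0.205 CPM in wildtype and 38.1 ± 9.99 CPM in miR146aKO (7.35, edgeR adjusted p = 0.116).

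Feedback inhibitors are induced by the same signals and shut them off, as Nfkbia does for NF-kB and the Dusp phosphatases for MAP kinases. Of 19 listed, 17 were tested, with 5 higher and 2 lower at an unadjusted p under 0.05 in miR146aKO (median 1.09), against 8.81% and 7.09% of all tested genes. There were 0 higher and 1 lower in Runx1mut (median -0.45), against 2.64% and 2.88%, and 2 higher and 0 lower in miR146aKO_Runx1mut (median 0.23), against 4.99% and 4.43%. Nfkbia averaged 37.0 ± 12.9 CPM in wildtype and 150.9 ± 37.8 CPM in miR146aKO (SD, n = 3; log2 fold change 2.03, edgeR adjusted p = 0.106). Zfp36l1 averaged 31.7 ± 10.2 and 238.0 ± 129.4 CPM in these genotypes (2.91, edgeR adjusted p = 0.122). Spry2, an inhibitor of receptor tyrosine kinase signals, averaged 26.8 ± 28.9 CPM in wildtype and 1.29 ± 0.789 CPM in miR146aKO.

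Among 16 other AP-1 subunits and partners, 14 were tested, with medians of 0.34 in miR146aKO, -0.10 in Runx1mut and 0.40 in miR146aKO_Runx1mut. In any comparison 0 were called, where at most 0.408% of all tested genes were. At an unadjusted p under 0.05, 4 were higher and 1 lower in miR146aKO, against 8.81% and 7.09% of all tested genes. There were 1 and 1 in Runx1mut, against 2.64% and 2.88%, and 2 and 1 in miR146aKO_Runx1mut, against 4.99% and 4.43%. Atf4, a factor of the integrated stress response, averaged 131.4 ± 16.4 CPM in wildtype and 296.1 ± 49.3, 320.9 ± 96.4 and 334.5 ± 53 CPM in the altered genotypes (edgeR adjusted p = 0.122, 0.608 and 0.356). Maf, a macrophage and T cell factor, averaged 20.7 ± 26.2 CPM in wildtype, 283.4 ± 154.6 in miR146aKO, 1.74 ± 1.25 in Runx1mut and 28.5 ± 34.7 in miR146aKO_Runx1mut, and its edgeR adjusted p for any difference was 0.0532. The Egr co-repressors Nab1 and Nab2 averaged 61.4 ± 21.6 and 33.6 ± 21.7 CPM in wildtype and 39.4 ± 7.0 and 37.1 ± 43.3 CPM in miR146aKO. Of 30 upstream kinases and transcription factors, all tested, 2 were higher and 1 lower at an unadjusted p under 0.05 in miR146aKO, with a median of 0.03, where 8.81% and 7.09% of all tested genes were.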

How the data were processed

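RNA-seq of 12 libraries of sorted LSK cells was analysed. The deposited table holds raw read counts per gene symbol, made by the authors with FastQC 0.11.2, HISAT2 2.0.4 and featureCounts 1.5.2 on mm10, per the submitters' processing notes. For the strand setting and the annotation release, the sources used here give nothing. Per the labels' protocols, RNA was amplified with NuGEN Ovation v2 and libraries were made with Nextera XT, which keep no strand. No column of counts was left unused.

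Counts were tested with edgeR 4.0.16 in R 4.3.3 (quasi-likelihood test) after TMM scaling and its default filter, in 1 fit over 12 libraries, and p-values were adjusted by Benjamini-Hochberg over all 12744 genes kept of 24421 symbols (5211 had no count). The common biological coefficient of variation was 0.809. Log2 CPM used a prior count of 2. Genes were called at an adjusted p under 0.05. The code was run on simulated counts with less spread than these data and large changes in well-counted genes only. That run cannot tell how the test performs on smaller changes or on genes near the floor. Alternatives were DESeq2 1.42.0, limma-voom (limma 3.58.1), other scalings, no low-count filter, a Y-linked covariate and leaving out each library. A library of 1 group was then assumed to vary like the others.

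The members, the gene lists and the motifs were chosen with earlier results of these data known. Named were the members, up to 3 tested genes per list with the smallest p for any difference between genotypes, and the 5 genes most like Fos and Egr1. Klf4 and S1pr1 were named outside that rule, as were single marker genes. Coordinates, exon lengths and overlapping genes come from GENCODE M21 and promoters from RefSeq. Amplified reads are not independent molecules, so floors of 3 counts cover counting error only.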

Additional observations from a re-analysis of the deposited data

How the results depend on the processing

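No member was called with limma-voom, the other scalings, the Y-linked covariate or any one library left out (0 to 0 called in each comparison). For miR146aKO against wildtype, the Y-linked covariate cannot be told apart from genotype, so its result there decides nothing. DESeq2 called 2 members in miR146aKO against wildtype, 1 in Runx1mut against wildtype, 1 in miR146aKO_Runx1mut against miR146aKO, 2 for the interaction and 2 for any genotype, and 846, 117, 645, 168 and 875 of all genes. Without the low-count filter edgeR called 4, 4 and 2 members in the 3 comparisons with wildtype, 3 for the interaction, 1 (Klf2) for pooled miR-146a loss and 4 for any genotype, and 796, 162, 256, 268, 624 and 1359 of all genes. The cause was not tested. Over all genes, calls in miR146aKO against wildtype were 23 in the main test, 76 with limma-voom, 41 with library totals, 9 with the Y-linked covariate and 2 to 135 with one library left out.

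Of 44 signed member results, 8 of 264 values under the other settings and 11 of 342 with one library left out had the other sign. The comparison of miR146aKO_Runx1mut with Runx1mut is not among them, and there Fos and Junb turned to 0.16 and 0.06 with limma-voom. Egr1 turned to -0.42 in miR146aKO and to -0.78 in miR146aKO_Runx1mut with the Y-linked covariate, and to -0.05 in the latter with library totals. Ier2 in miR146aKO turned to 0.04 with DESeq2 and with its size factors and to 0.08 with limma-voom. Jund in miR146aKO_Runx1mut turned to -0.09 and the Ier2 interaction to 0.16 with the Y-linked covariate. With one library left out, Ier2 ranged from -0.29 to 0.21 in miR146aKO, Egr1 from -0.41 to 1.54 in Runx1mut, and in miR146aKO_Runx1mut Jun from 0.00 to 0.93, Egr1 from -0.75 to 0.63 and Egr2 from -1.36 to 7.39, the upper end a fitted value against wildtype libraries at 0 counts and no bound. The Ier2 interaction ranged from -0.61 to 0.32. Library totals moved the median of all genes by -0.17 in miR146aKO and -0.19 in miR146aKO_Runx1mut. No paired analysis was possible because the count columns carry no replicate number. Depth limits Egr2 and Egr3, with 12 and 9 counts in wildtype.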

Other observations

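Of 13 other Krüppel-like factor genes listed, 10 were tested and 0 were called in any comparison, where at most 0.408% of all tested genes were. Their median log2 fold changes against wildtype were 0.95 in miR146aKO, -0.15 in Runx1mut and 0.42 in miR146aKO_Runx1mut. Klf13 averaged 69.2 ± 12.7 CPM in wildtype and 154.5 ± 44.0, 174.1 ± 66.2 and 155.4 ± 24.3 CPM in the altered genotypes (SD, n = 3; edgeR adjusted p = 0.165, 0.608 and 0.475). Klf4, an early gene of monocytes, had log2 fold changes of 2.42, 0.60 and 2.82 (edgeR adjusted p = 0.226, 1 and 0.475).

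Genes of cell trafficking and endothelium that Klf2 is known to regulate differed among themselves. Of 7 tested, 4 were higher and 1 lower at an unadjusted p under 0.05 in miR146aKO (median 2.23), against 8.81% and 7.09% of all tested genes, and the medians were -0.69 in Runx1mut and -0.29 in miR146aKO_Runx1mut, where Klf2 was at 3.28 and 2.74. The lymphocyte homing receptor gene Ccr7 averaged 0.0456 ± 0.079 CPM in wildtype and 42.2 ± 40.7 CPM in miR146aKO. In the latter it was at 0 in A047, 81.3 CPM in A150 and 45.3 CPM in A151. The integrin gene Itgb7 averaged 75.1 ± 5.15 CPM in miR146aKO, against 15.9 ± 2.63 CPM in wildtype. S1pr1, a receptor gene of lymphocyte egress, had a log2 fold change of 0.92 in miR146aKO (edgeR adjusted p = 0.82). The endothelial gene Nos3 averaged 28.0 ± 43.1 CPM in wildtype and 0.0807 ± 0.14 CPM in miR146aKO. The wildtype mean rests on A040 (77.7 CPM), with 2.74 CPM in A015 and 3.56 CPM in A053.

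The list of 14 heat shock genes, which encode chaperones, summed to 7191.7 to 8770.8 CPM in wildtype and 5364.9 to 5680.6 CPM in miR146aKO, and 13 were tested. In miR146aKO, 0 were higher and 3 lower at an unadjusted p under 0.05, with a median of -0.19, against 8.81% and 7.09% of all tested genes. Hspd1, a mitochondrial chaperone, averaged 592.7 ± 165.2 CPM in wildtype and 242.0 ± 56.4 CPM in miR146aKO (SD, n = 3; log2 fold change -1.29, edgeR adjusted p = 0.154). In A042, the highest library for 4 of the early genes, heat shock genes summed to 7760.4 CPM. In A053, the lowest library in the early gene sum, they summed to 8770.8 CPM. Hsp90ab1 and Hspa8 made up much of these sums, at 3069.2 and 1497.3 CPM in A042 and 3985.1 and 1629.7 CPM in A053. The highest heat shock sums were in A001 (14529 CPM) and A058 (10041.9 CPM), where the early genes summed to 789.9 and 2761 CPM. The relation of the heat shock genes to the early genes was not tested.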
